A study of Mus musculus with 6 samples.

Results

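The alpha-arrestins described here are Txnip and its relatives Arrdc1, Arrdc2, Arrdc3 and Arrdc4, which are 5 of the 21531 genes measured. The family was chosen by a measured value of these same arrays, the large fasted minus refed difference of Txnip, so that difference is given as a description without a test. The other members were taken by their gene symbols and not by a rule on their values, but earlier results of these data were known. Each of the 5 symbols had a single transcript cluster, the set of probes that stands for a gene on the array.

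Liver RNA came from wild-type mice of 12 to 14 weeks that had been either fasted or refed, with 9 mice in each condition. RNA of 3 mice of the same condition was pooled on each Affymetrix mouse gene 1.0 ST array, which gave 3 fasted and 3 refed arrays of different mice. A pool hides the variation among its mice, and the p-values below measure the spread between pools. The series belongs to a study of the RNA polymerase III repressor MAF1, but all 6 arrays are of wild-type liver. The sources used here do not give how long the mice were fasted or refed, their sex or the time of day.

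Alpha-arrestins share the arrestin fold with the beta-arrestins that switch off G protein-coupled receptors. Most carry PPxY motifs that recruit ubiquitin ligases of the NEDD4 family, and so they act as adaptors that mark membrane proteins for uptake and sorting. Txnip also binds and inhibits thioredoxin, lowers glucose uptake by promoting the removal of glucose transporters from the cell surface, and in liver and other tissues is a well-known target of the glucose-responsive factors ChREBP (Mlxipl) and MondoA (Mlxip). Arrdc4, its closest relative, is a target of the same factors.

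The promoters of Txnip and Arrdc4 are shown because these are the best-known carbohydrate-responsive members and the pair with the largest differences in the family. Both stretches are the 250 bases just before the RefSeq transcript start in GRCm38.p6, read 5′ to 3′ on the strand of the gene, with lower case for bases outside the searched motifs and capitals for the matches. The Txnip stretch is chr3:96557707-96557956 on the plus strand and the Arrdc4 stretch is chr7:68749239-68749488 on the minus strand.
Txnip: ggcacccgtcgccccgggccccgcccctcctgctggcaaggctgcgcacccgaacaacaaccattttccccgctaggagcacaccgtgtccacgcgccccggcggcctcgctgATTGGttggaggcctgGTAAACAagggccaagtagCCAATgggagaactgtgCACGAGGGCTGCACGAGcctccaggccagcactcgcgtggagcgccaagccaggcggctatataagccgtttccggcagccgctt
Arrdc4: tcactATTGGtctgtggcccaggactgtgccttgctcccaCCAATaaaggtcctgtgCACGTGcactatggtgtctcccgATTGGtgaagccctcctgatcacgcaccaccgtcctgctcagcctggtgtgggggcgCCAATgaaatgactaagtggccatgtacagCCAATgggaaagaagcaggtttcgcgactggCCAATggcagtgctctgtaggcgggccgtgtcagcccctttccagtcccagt

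The motifs were searched on both strands as exact letters, where N is any base. The search took in a tandem of E-box-like repeats, CACGNG followed by 5 bases of any kind and a further CACGNG, which is the general shape of a carbohydrate response element, the palindromic E-box CACGTG, the box CCAAT bound by NF-Y, and GTAAACA, a core letter run of forkhead factors such as Foxo1. An E-box may lie inside a tandem, but no matches overlapped in the promoters of the members. The tandem stood in Txnip from 85 to 69 bases before the start, and 15 of the 32851 RefSeq windows of this length held one (0.0457%). Txnip also held a CCAAT box at 137 to 133 bases, written ATTGG on this strand, a forkhead match at 121 to 115 bases and a further CCAAT box at 102 to 98 bases. Arrdc4 held no tandem with these letters. It held an E-box at 193 to 188 bases, as did 6.02% of windows, and 6 CCAAT boxes, whereas 33.8% of windows held at least 1 and 0.0578% held 6 or more. Forkhead letters stood in 3.17% of windows. Arrdc2 held 3 CCAAT boxes, 2 of the 3 Arrdc3 windows overlap and held the same single CCAAT box, and the Arrdc1 window held none of the 4 motifs. A match is a description of letters and not a bound site.

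**Figure D1:**
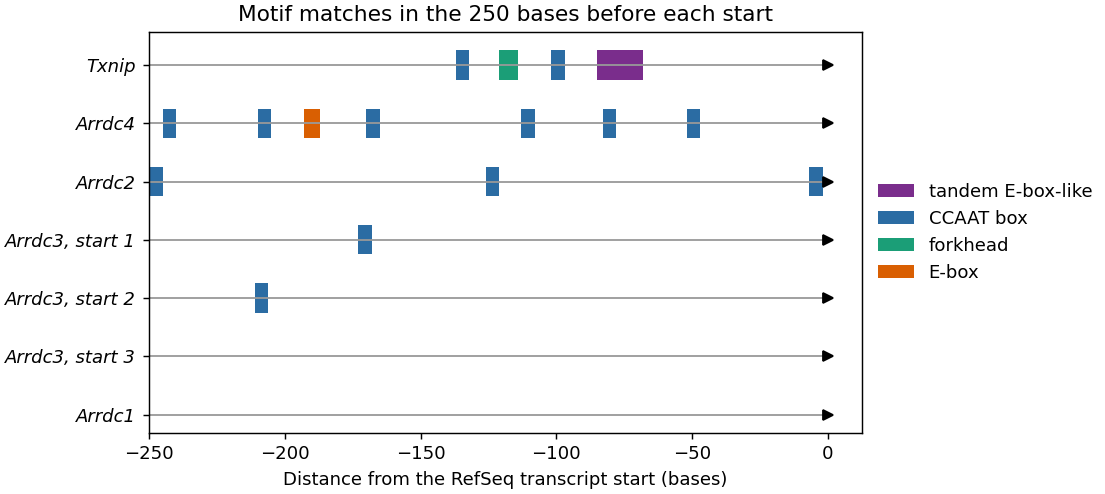
Motif matches in the 250 bases before each RefSeq start of the alpha-arrestins, with the distance from the start in bases on the horizontal axis, an arrowhead at the start and a coloured block for each match. The tandem E-box-like match lies in Txnip, 85 to 69 bases before the start, and the 6 CCAAT boxes lie in Arrdc4.

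Across all genes the arrays were alike, with Pearson correlations of 0.994 to 0.996 among arrays of a condition and of 0.990 to 0.994 across conditions. The second principal component held 26.8% of the variance, and on it fasted 3 (-18.63) and refed 2 (-14.30) had negative scores and the remaining 4 arrays positive scores (5.60 to 12.12). The changes without these 2 arrays are given below for the members and for the called genes of the related lists. All values are RMA log2 values, changes are fasted minus refed on that scale, and intervals are 95% confidence intervals from limma. The median change over all genes was -0.01, and 5% of genes lay below -0.29 and 5% above 0.26.

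Txnip was the member that stood apart. Its transcript cluster, 10494428, lies on the plus strand of chr3:96361880-96373525 in NCBIM37 and has 34 probes. The fasted arrays gave 10.32, 10.73 and 10.15 and the refed arrays gave 9.30, 8.86 and 8.84. All fasted arrays lay above all refed arrays, with 0.85 between the lowest fasted and the highest refed value. The means were 10.40 ± 0.30 (SD, n = 3) and 9.002 ± 0.26 (SD, n = 3). The difference was 1.40 (1.05 to 1.75), or 2.63-fold, which was the third largest increase of all genes measured. It ran from 1.23 to 1.55 when any single array was left out, and was 1.45 without fasted 3 and refed 2. The interval, the rank and these values come from the arrays on which the family was chosen, so they describe the rise and do not test it.

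Txnip was also more variable between pools than most genes. Its SD was larger than that of 97.4% of genes among the fasted arrays and of 95.2% among the refed arrays. Fasted 2 was the highest fasted array, and refed 1 exceeded the other refed arrays by 0.44. The transcript cluster of Txnip spans 11646 bases in the annotated table, against 3901 bases for the RefSeq gene in GRCm38.p6, so part of the span lies outside the gene. How its probes are spread over that span was not tested. The transcript cluster of Arrdc4 and its RefSeq gene both span 12245 bases, and that of Arrdc1 spans 9814 against 9984 bases.

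Arrdc4 had the next largest difference in the family. This adaptor is known to lower glucose uptake as Txnip does and lies on the minus strand of chr7:75881880-75894124 in NCBIM37 (transcript cluster 10564507, 38 probes). The fasted arrays gave 8.06, 8.05 and 7.85, and the refed arrays 7.56, 7.69 and 7.72. The fasted arrays were all above the refed arrays, by a gap of 0.13. The means were 7.99 ± 0.12 and 7.65 ± 0.09 (SD, n = 3 each), a difference of 0.34 (0.13 to 0.55) or 1.26-fold. It did not pass limma's test over all genes (unadjusted p = 0.00483, adjusted p = 0.0978). Where arrays were left out or rescaled, the difference lay between 0.29 and 0.42. The remaining settings keep the same 6 values, so they can change the p but not the difference. Over the 15 alternative settings the adjusted p lay between 0.0517 and 0.309, so Arrdc4 was called in none of them. Without fasted 3 and refed 2 the difference was 0.42 (adjusted p = 0.0839).

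Arrdc2, a less studied adaptor of the family, showed a smaller difference. It lies on the minus strand of chr8:73359032-73363619 (transcript cluster 10579406, 40 probes). The fasted arrays gave 7.73, 7.52 and 7.63, and the refed arrays 7.52, 7.44 and 7.37. The groups lay apart by only 0.000943, between fasted 2 and refed 1, far less than the spread within either group. The means were 7.63 ± 0.10 and 7.44 ± 0.08 (SD, n = 3 each), with a difference of 0.18 (-0.02 to 0.39) and an adjusted p of 0.415 by limma. Without fasted 3 and refed 2 the difference was 0.18 (adjusted p = 0.514).

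Arrdc3 had an uneven refed group. It is an adaptor known to act on beta-adrenergic receptors and, in mice, to limit energy expenditure, and lies on the plus strand of chr13:81022673-81035303 (transcript cluster 10406407, 35 probes). The fasted arrays gave 10.37, 10.40 and 10.22, within 0.18 of each other. The refed arrays gave 10.67, 9.80 and 9.97. Refed 1 was thus above every fasted array while refed 2 and refed 3 were below all of them. The means were 10.33 ± 0.10 and 10.15 ± 0.46 (SD, n = 3 each), with a difference of 0.18 (-0.22 to 0.59, adjusted p = 0.790). The refed SD was larger than that of 99.3% of genes.

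The value of Arrdc3 rested on the refed array left out. Without refed 1 the difference was 0.45 (limma adjusted p = 0.0750) and the groups no longer overlapped. It was 0.01 without refed 2 (adjusted p = 0.994) and 0.09 without refed 3 (adjusted p = 0.953), and 0.06 without fasted 3 and refed 2 (adjusted p = 0.927). Refed 1 was above the other 5 arrays in 3015 genes, or 14.0% of all genes. In 18 genes, Arrdc3 among them, it exceeded the other refed arrays by at least the 0.71 seen for Arrdc3. What set refed 1 apart for Arrdc3 was not tested.

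Arrdc1, which recruits the ESCRT machinery to the plasma membrane to release vesicles, showed no detectable difference at this number of arrays. It lies on the minus strand of chr2:24780872-24790685 (transcript cluster 10480570, 32 probes). The fasted arrays gave 6.82, 6.69 and 6.79 and the refed arrays gave 6.76, 6.90 and 6.75. The groups overlapped, and fasted 2 was the lowest and refed 2 the highest of the 6 arrays. The means were 6.77 ± 0.07 and 6.80 ± 0.08 (SD, n = 3 each), with a difference of -0.04 (-0.23 to 0.16, adjusted p = 0.941). It was 0.00209 without fasted 2 and 0.0115 without refed 2, and -0.00189 without fasted 3 and refed 2.

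**Figure D2:**
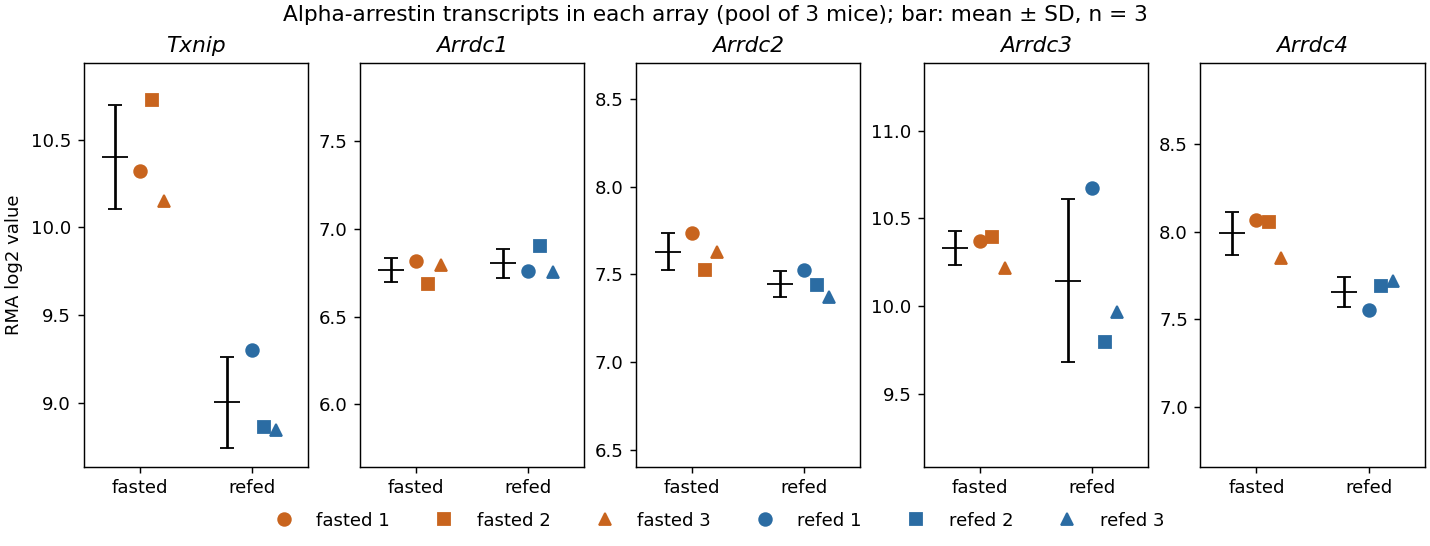
RMA log2 value of each alpha-arrestin in each of the 6 arrays, 1 point per array (a pool of 3 mice), with the group mean and SD (n = 3) as black bars. Each panel has its own axis but covers the same log2 range, so that the gap of Txnip, the small gap of Arrdc4 and the high refed 1 of Arrdc3 can be compared.

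Set side by side, the differences ran from Txnip (1.40) through Arrdc4 (0.34), Arrdc2 (0.18) and Arrdc3 (0.18) to Arrdc1 (-0.04). Txnip stands first by the choice of the family. The intervals of Arrdc4, Arrdc2, Arrdc3 and Arrdc1 all overlapped one another, and the order among them was not resolved. Of Arrdc1 to Arrdc4, 0 of 4 were called changed in limma at an adjusted p under 0.05, and Arrdc4 had the smallest adjusted p of them (0.0978). The background share of called genes was 3.02%, with 1.40% higher and 1.62% lower in the fasted liver. The fasted arrays lay above the refed arrays without overlap in 3 of 5 members, Txnip, Arrdc4 and Arrdc2, against 8.16% of all genes (18.8% in either direction), and Txnip is in that count by choice. The change was positive in 4 of 5 members and in 47.0% of all genes. The gap of Arrdc2 in that count is 0.000943.

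The members differed in which arrays of a group were high or low. Among the fasted arrays, fasted 3 was the lowest for Txnip, Arrdc3 and Arrdc4 but not for Arrdc1 or Arrdc2. Refed 1 was the highest refed array for Txnip (0.30 above the group mean), Arrdc3 (0.53) and Arrdc2 (0.08). For Arrdc4 the same array was the lowest refed array, 0.10 below the mean (-0.10 as a deviation), and for Arrdc1 the deviation was -0.05. With 3 arrays a group, no correlation between members was computed.

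The other proteins with an arrestin fold served for comparison. They were the beta-arrestins Arrb1 and Arrb2, the visual arrestins Sag and Arr3, the retromer-type subunits Vps26a, Vps26b and Vps26c (Dscr3 on the array), and Arrdc5, the remaining mammalian alpha-arrestin. Of these 8 genes limma called 0 higher and 0 lower, and their median change was -0.04. Their changes ran from -0.19 for Arrb2 (limma adjusted p = 0.395) to 0.10 for Dscr3, both named after their values were seen. Arrdc5 had 5.32 in the fasted and 5.35 in the refed liver, a difference of -0.03 (-0.24 to 0.18, adjusted p = 0.957). The interval of Arrdc4 overlapped several of theirs.

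**Figure D3:**
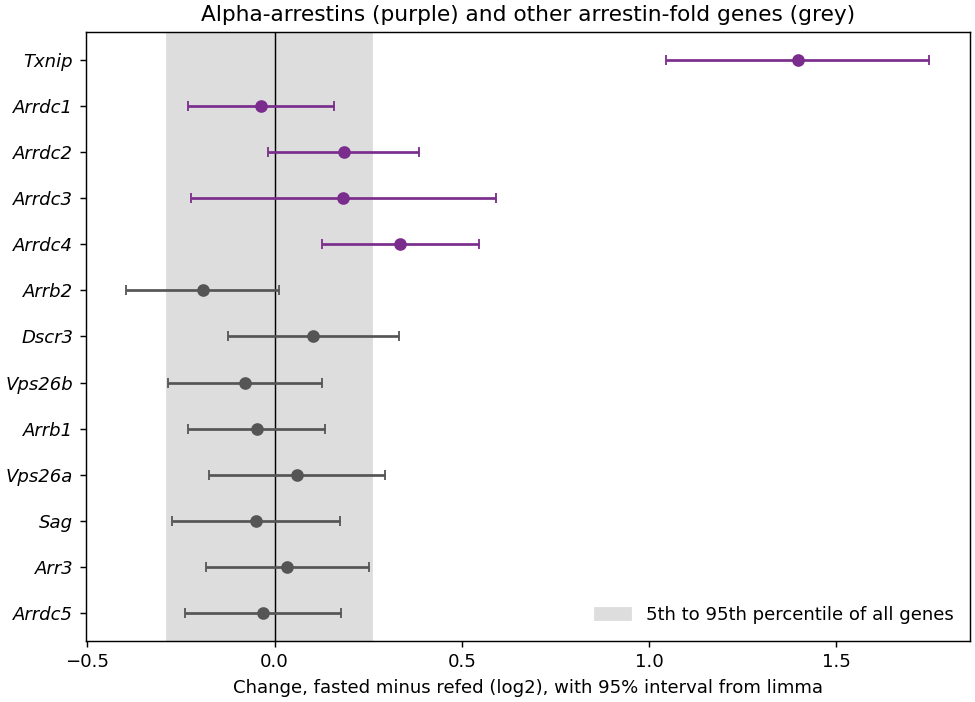
Change of each alpha-arrestin (purple) and each other arrestin-fold gene (grey), fasted minus refed in log2 units on the horizontal axis, with the 95% interval from limma and the 5th to 95th percentile of all genes in grey. Txnip (1.40), which was chosen for this difference, lies to the right, Arrdc4 (0.34) lies just outside the grey band, and the remaining points lie inside it.

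The genes nearest to Txnip in their pattern across the 6 arrays were not its relatives. Likeness was measured as the root mean square difference of log2 values after each gene's own mean was taken out, so that a small value means nearly the same rise and the same spread. The 5 nearest genes were Serpina7 (0.138), which encodes thyroxine-binding globulin, the C-type lectin gene Clec2h (0.221), Agphd1 (0.241, Hykk in RefSeq), which encodes hydroxylysine kinase, the acyl-CoA thioesterase gene Acot3 (0.246) and the Kelch-like gene Klhl24 (0.257). Serpina7 had 9.17, 9.27 and 8.91 in the fasted and 7.97, 7.71 and 7.82 in the refed arrays. Like Txnip, it was highest in fasted 2 and refed 1 and lowest of the fasted arrays in fasted 3. Klhl24 had the same order of arrays within the fasted group, with 10.36, 10.66 and 10.21. The changes of these 5 genes were 1.29 for Serpina7, 1.297 for Clec2h, 1.01 for Agphd1, 1.54 for Acot3 and 0.95 for Klhl24, which the measure of likeness itself favours. The relatives of Txnip ranked 694 (Arrdc4, 0.582), 1517 (Arrdc3, 0.633), 2133 (Arrdc2, 0.654) and 13019 (Arrdc1, 0.767) by the same measure. Since the size of the change weighs heavily in it, genes with changes as small as theirs could not rank near Txnip.

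**Figure D4:**
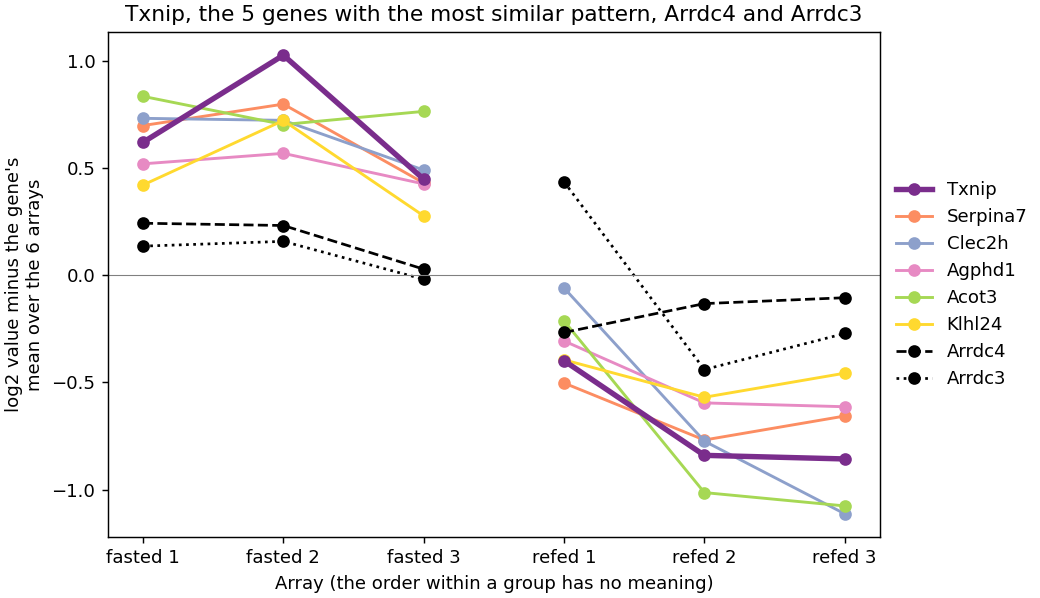
Log2 value minus the mean over the 6 arrays (vertical axis) in each array (horizontal axis) for Txnip, the 5 genes with the smallest root mean square difference from it, Arrdc4 and Arrdc3. The 5 genes follow Txnip at 0.138 to 0.257 log2 units, whereas Arrdc4 stays near its mean and Arrdc3 crosses it in refed 1.

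Of the ubiquitin ligases and adaptors of the NEDD4 family, the enzymes that alpha-arrestins recruit, 11 were measured. Limma called 1 lower in the fasted liver, Nedd4l, and 0 higher. Of all genes, 1.62% were called lower and 1.40% higher, which is the background for this and the later lists and markers. These lists were chosen with earlier results of these data known. Nedd4l, known for the turnover of the epithelial sodium channel, gave 9.51, 9.55 and 9.39 in the fasted and 10.37, 10.23 and 10.20 in the refed arrays. All fasted arrays lay below all refed arrays. The difference was -0.78 (-0.98 to -0.58, limma adjusted p = 0.00140), and it was called in all 15 alternatives, with -0.76 without fasted 3 and refed 2. Itch, the ligase known to ubiquitinate Txnip, had 9.95 and 9.85, a difference of 0.10 (-0.16 to 0.36, adjusted p = 0.833). The median of the list was 0.08.

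Endosomal sorting genes take up the cargo once it is ubiquitinated, and Arrdc1 binds the ESCRT-I subunit Tsg101. Of 14 measured genes 2 were lower and 0 higher, against a background of 1.62% lower, with a median of -0.03. Both encode Vps37 subunits of ESCRT-I. The other ESCRT-I subunits of the list were not called: Tsg101 (-0.10), Vps28 (-0.07), Vps37a (0.05) and Fam125a (-0.05, Mvb12a in RefSeq). Vps37c had 8.67, 8.59 and 8.71 in the fasted and 9.26, 9.20 and 9.26 in the refed arrays, a difference of -0.58 (limma adjusted p = 0.00408) that was called in all 15 alternatives, with -0.63 without fasted 3 and refed 2. Vps37b had 7.73, 7.81 and 7.86 against 8.22, 8.24 and 8.22, a difference of -0.43 (adjusted p = 0.0184). The groups of both genes stood clear of each other. The call of Vps37b was lost without fasted 1 (adjusted p = 0.0954), fasted 2 (0.0616), refed 1 (0.0600) or refed 3 (0.0696), without fasted 3 and refed 2 together (-0.45, adjusted p = 0.0556) and when all 34760 transcript clusters were tested in place of the genes (0.0862).

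The thioredoxin and peroxiredoxin genes, the redox partners of Txnip, showed 0 called of 17 in either direction, with a median of 0.02. Txn1, the thioredoxin that Txnip binds, had 13.80, 13.77 and 13.73 in the fasted and 13.77, 13.84 and 13.77 in the refed arrays. These values overlapped, and the difference was -0.02 (-0.20 to 0.16, limma adjusted p = 0.962). The largest changes of the list were those of Glrx (-0.31, adjusted p = 0.126), Txnrd3 (0.27, 0.306) and Txnrd2 (0.20, 0.326), named after their values were seen.

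Among 11 glucose and fructose transporters of the Slc2a family, whose surface level Txnip is known to limit in the case of Slc2a1 and Slc2a4, 1 was higher and 0 were lower, and the median was 0.00231. Slc2a5, the fructose transporter, gave 8.86, 8.44 and 8.69 in the fasted and 8.27, 7.86 and 8.01 in the refed arrays, a difference of 0.62 (0.33 to 0.91, limma adjusted p = 0.0294). Its groups did not overlap, but the call was lost without fasted 1 (adjusted p = 0.136), fasted 3 (0.0738), refed 2 (0.0626) or refed 3 (0.0947), without fasted 3 and refed 2 together (0.51, adjusted p = 0.164) and over all transcript clusters (0.159). Slc2a2, the main glucose transporter of hepatocytes, had 12.27 and 12.09, a difference of 0.18 (-0.04 to 0.40, adjusted p = 0.502). Of 7 adrenergic and glucagon receptors, the kind of receptor Arrdc3 is known to act on, limma called 0, the median was 0.14, and the highest change was 0.45 (Adrb3, adjusted p = 0.0683), named after its value was seen. Adrb3 passed the test only without refed 2 (0.53, adjusted p = 0.0428).

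The transcription factors known at the Txnip or Arrdc4 promoters numbered 14, of which 1 was higher and 0 lower, with a median of -0.03. Mlxipl, which encodes ChREBP, had 11.65, 11.53 and 11.64 in the fasted and 11.75, 11.88 and 11.64 in the refed arrays. Its groups overlapped, with a difference of -0.15 (-0.36 to 0.05, limma adjusted p = 0.555), and Mlxip, which encodes MondoA, had -0.16 (-0.34 to 0.02, adjusted p = 0.445). Mlx, the partner that both bind DNA with and the lowest gene of the list, was named after its value was seen. It had 9.77, 9.63 and 9.73 in the fasted and 10.10, 9.99 and 10.10 in the refed arrays, groups that did not overlap, and its difference of -0.36 (-0.55 to -0.16) did not pass the test (adjusted p = 0.0554). Foxo1, a forkhead factor restrained by insulin, had 10.11, 9.97 and 9.99 in the fasted and 9.74, 9.55 and 9.68 in the refed arrays. Its groups did not overlap, and the difference of 0.37 (0.17 to 0.56) did not pass the test (adjusted p = 0.0559). Ppargc1a, the coactivator PGC-1alpha of the fasting response, was higher by 0.63 (0.37 to 0.89, adjusted p = 0.0151), with 8.91, 8.96 and 8.63 against 8.12, 8.39 and 8.09. That call was lost without fasted 1 (adjusted p = 0.0885), fasted 2 (0.0627), refed 1 (0.0581) or refed 3 (0.0653), and over all transcript clusters (0.111), while the difference was 0.83 without fasted 3 and refed 2 (adjusted p = 0.00914).

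Other genes known to respond to carbohydrate in liver held calls in both directions. Of 15 measured, 3 were higher in the fasted liver (Rgs16, G6pc and Klf10) and 1 was lower (Elovl6), with a median of 0.08. The list was drawn up with earlier results of these data known. It holds Rgs16, which had the largest increase of all genes measured. Rgs16, whose protein curbs G protein signalling, gave 11.35, 11.11 and 11.26 in the fasted and 9.004, 9.010 and 8.992 in the refed arrays, a difference of 2.24 (2.04 to 2.43), and 2.23 without fasted 3 and refed 2. G6pc, the glucose-6-phosphatase of glucose output, differed by 0.49 (limma adjusted p = 0.0251), Klf10, a glucose-responsive transcriptional regulator, by 0.44 (adjusted p = 0.0384), and Elovl6, a fatty acid elongase, by -0.50 (adjusted p = 0.0301). Klf10 lay outside the rule for named genes and was named after its value was seen. The calls of G6pc and Klf10 were lost without fasted 1 (adjusted p = 0.116 and 0.158), fasted 2 (0.0734 and 0.0912), refed 1 (0.0825 and 0.113) or refed 3 (0.104 and 0.137), and over all transcript clusters (0.126 and 0.157). Without fasted 3 and refed 2 they were 0.60 and 0.54 (adjusted p = 0.0262 and 0.0488). That of Elovl6 was lost without fasted 1 (0.102), fasted 2 (0.0893), fasted 3 (0.0739), refed 1 (0.106) or refed 2 (0.0750), without fasted 3 and refed 2 together (-0.42, adjusted p = 0.156) and over all transcript clusters (0.147).

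The stress and inflammasome partners of Txnip counted 12 genes, with 1 higher, 0 lower and a median of -0.05. Mtor, the growth kinase that Txnip restrains together with Ddit4, had 9.75, 9.68 and 9.64 in the fasted and 9.22, 9.08 and 9.25 in the refed arrays, a difference of 0.50 (0.31 to 0.70, limma adjusted p = 0.0112). Its groups did not overlap, and the call was lost without fasted 1 (adjusted p = 0.0685) and over all transcript clusters (0.0756). Without fasted 3 and refed 2 the difference was 0.48 (adjusted p = 0.0464). Ddit4 itself, named after its value was seen, had -0.36 (-0.58 to -0.13, adjusted p = 0.101).

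**Figure D5:**
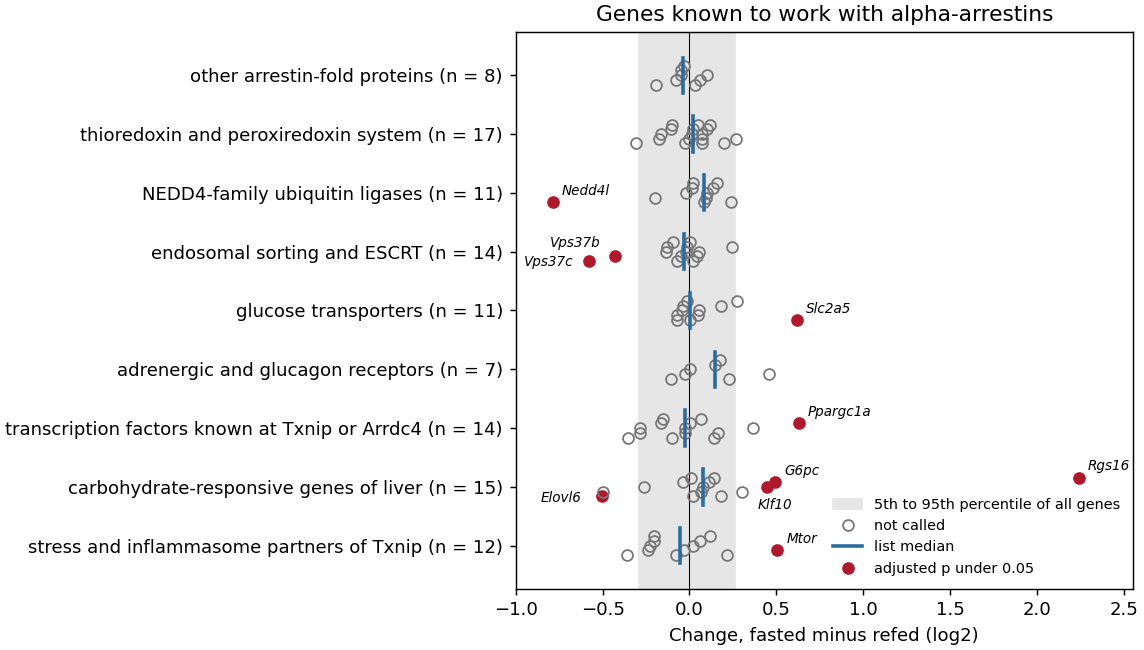
Change of each gene in the 9 related lists, fasted minus refed in log2 units on the horizontal axis. Called genes are in red, the list median in blue and the 5th to 95th percentile of all genes in grey. The lists hold partners, regulators and arrestin-fold relatives of the members and other carbohydrate-responsive genes, so not every gene is known to work with alpha-arrestins. The medians lie between -0.05 and 0.14, and the 10 called genes are named.

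Hepatocytes make up most of the liver by mass, and the 8 hepatocyte markers, Alb and Ttr among them, were at high levels, with 0 called by limma (summed level 16.45 to 16.48 in the fasted and 16.43 to 16.48 in the refed arrays, on the log2 scale of summed linear values). Their lowest change was -0.25 (Hnf4a, adjusted p = 0.193), named after its value was seen. Of 7 Kupffer cell markers 1 was lower, Vsig4 (-0.71, limma adjusted p = 0.00904), with summed levels of 11.27 to 11.35 in the fasted and 11.47 to 11.79 in the refed arrays. The change was positive in 0 of 7 Kupffer cell, 0 of 5 cholangiocyte, 1 of 5 lymphocyte, 2 of 5 neutrophil and 1 of 3 erythroid markers. It was positive in 3 of 5 stellate, 4 of 5 endothelial and 6 of 8 hepatocyte markers, and in 47.0% of all genes. The Vsig4 call was lost without fasted 1 (adjusted p = 0.0543), without fasted 3 and refed 2 together (0.0607) and over all transcript clusters (0.0858). Of 5 cholangiocyte markers 1 was lower, Sox9 (-0.53, adjusted p = 0.0141), with summed levels of 9.09 to 9.25 against 9.47 to 9.58, and that call was lost without fasted 1 (0.0543), fasted 2 (0.0582) or refed 3 (0.0667) and over all transcript clusters (0.0946). A sum of linear values weighs the highest genes most, here Vsig4 and Sox9. The other Kupffer cell markers changed by -0.27 (Emr1, Adgre1 in RefSeq) to -0.04 (Marco). The other cholangiocyte markers changed by -0.29 (Krt19) to -0.01 (Epcam), and none of these other markers was called. Of the endothelial, stellate, lymphocyte, neutrophil and erythroid markers limma called 0. Of 4 erythroid markers 3 were measured, with summed levels of 13.09 to 13.23 in the fasted and 12.90 to 14.06 in the refed arrays. Among them Hba-a1, named after its value was seen, had 12.60, 13.92 and 12.97 in the refed arrays. In such bulk samples, fewer cells of a type and less RNA per cell cannot be told apart, and the part of cell makeup in the Txnip, Nedd4l and Vps37 differences was not tested.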

How the data were processed

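Liver RNA of fasted and refed mice, 3 arrays of 3 pooled mice each, was analysed from the log2 values that the authors deposited, made by RMA with Affymetrix Expression Console 1.3.1.187 per the submitters' processing notes. Symbols and positions (NCBIM37) came from the annotated table, in which 12 further per-array columns were not tied to samples and, like the authors' own fold changes and p-values of livKOR against livWTR, were not used. Its livWTR mean served only to drop 558 transcript clusters whose refed mean differed by over 1 log2 unit. Of several clusters of a symbol, the one with the highest mean stood for the gene. limma 3.58.1 (R 4.3.3, lmFit and eBayes, group as the only term) was fitted on all 21531 genes, with Benjamini-Hochberg adjustment over all of them and calls where the adjusted p was under 0.05. No exact permutation test was used, since with 3 arrays against 3 its p cannot go below 0.1. Arrays give no depth, and their number limits the precision. The script was tested on simulated data.

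Members and lists were chosen with earlier results of these data known. Named were the 5 members, 8 genes tied to them, up to 3 called genes per list with the smallest adjusted p, and the 5 genes nearest to Txnip in pattern. Promoter sequences are from RefSeq, and all 5 members matched. Figures were drawn with matplotlib 3.10.9.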

Additional observations from a re-analysis of the deposited data

How the results depend on the processing

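In all 15 alternatives 0 of Arrdc1 to Arrdc4 were called by limma. Groups did not overlap in 3 of the 5 members, and in 4 without refed 1. That array is the refed array of Arrdc3 above the fasted arrays, so leaving it out parts the Arrdc3 groups by itself. Txnip is among the members without overlap by choice, and the share over all genes was not computed for these settings. The Txnip difference ran from 1.23 to 1.55 where arrays were left out or rescaled, and the remaining settings cannot change it. With an array left out, Arrdc1 ran from -0.0628 to 0.0115 and turned positive without fasted 2 (0.00209) and without refed 2 (0.0115), and Arrdc5 ran from -0.10 to 0.02 and turned positive without fasted 2 (0.0208) and without refed 2 (0.0131). Txn1 turned positive without fasted 3 and refed 2 together (0.0147). The number of genes called was 651 with all arrays and 266 (without fasted 1) to 616 (without refed 2) with an array left out, among them 392 without fasted 2 and 336 without refed 3. It was 413 without fasted 3 and refed 2 together and 175 when all 34760 transcript clusters were tested, which adds tests. Of the 108 genes on the related lists, 10 were called with all arrays, against 3.02% of all genes. The lists were chosen with earlier results of these data known. With an array left out, 3 (without fasted 1) to 10 were called, 5 each without fasted 2, refed 1 or refed 3. Over all transcript clusters 3 were called (Rgs16, Nedd4l and Vps37c). Klf10 lost its call under median centring (adjusted p = 0.0531). The cause of these shifts was not tested. Correlations of same-numbered deviations were 0.0691, -0.229 and -0.335, and no fasted array correlated best with the refed array of its own number. Deviations from a mean of 3 arrays depend on each other, so this check cannot show whether the arrays were paired in handling. With the replicate number as a block, 457 genes were called, and 7 of the related genes, as G6pc (adjusted p = 0.0534), Klf10 (0.0847) and Vps37b (0.0725) lost their calls. Such a block cannot change a difference, as each number has an array in both groups, so that of Txnip was again 1.40. In that fit the adjusted p was 0.222 for Arrdc4, 0.608 for Arrdc2, 0.834 for Arrdc3 and 0.991 for Arrdc1. Mlx (-0.36, adjusted p = 0.0554) and Foxo1 (0.37, 0.0559) passed the test under quantile normalization, the filter on dim genes and the trended prior. Each member had a single transcript cluster, so no other cluster of a member could be tried, and the filter on dim genes left out Arrdc1. Summarised values do not show the signal over background.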

Other observations

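The promoter letters of Txnip and Arrdc4 were followed into the rest of the genome, with both gene groups defined by the members' own promoters and therefore given as a description. The tandem of CACGNG repeats 5 bases apart stood before the starts of 14 genes, of which 11 were measured. Apart from Txnip, which is in the group by choice, 1 of the other 10, Fnip1, was higher in the fasted liver and 0 were lower, against a background of 1.40% higher, and the median of the 11 changes was -0.04. Fnip1, which encodes a folliculin partner in AMPK and mTORC1 signalling, had means of 9.91 and 9.19, a difference of 0.72 (0.53 to 0.91, limma adjusted p = 0.00171), and was called in all 15 alternatives. The other 9 measured genes of that group, Nfkb2 and Fem1b among them, were not called.

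Windows with 6 or more CCAAT boxes belonged to 18 genes including Arrdc4, of which 13 were measured. In that group 0 were higher and 3 were lower, against a background of 1.62% lower, with a median change of 0.01. The lower genes were Arntl, the clock activator BMAL1 (-0.94, limma adjusted p = 0.000902), Eif2ak3, the endoplasmic reticulum stress kinase PERK (-0.72, adjusted p = 0.00372), and Cdk2ap2 (-0.49, adjusted p = 0.0127). The call of Cdk2ap2 was lost without fasted 1 (adjusted p = 0.0739), without refed 3 (0.0551) and over all transcript clusters (0.0809). Arrdc4 itself had a positive difference (0.34) that did not pass the test.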
